A study of Mus musculus with 8 samples.

Results

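The genes described here make cholesterol and fatty acids or control their synthesis. They were listed by symbol, with no measured value used, and 32 of 33 had a probe set annotated to that gene alone, among 18193 genes on the arrays. Acat2, the cytosolic thiolase that condenses acetyl-CoA at the start of the sterol pathway, had none. It has no score here and was counted only among the promoters. The 32 measured genes comprised 7 enzymes of early and 9 of late sterol synthesis, 5 regulators of the SREBP pathway, 3 enzymes of fatty acid synthesis, 4 desaturases, 3 elongases and Stard4, a sterol carrier. They were read by 77 probe sets, with several probe sets for 24 genes and a single probe set for 8.

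Gene expression was measured on 8 Affymetrix arrays of skeletal cells taken from femoral fracture calluses of male C57/Bl6 mice and not cultured. Both populations were sorted as CD51+ cells that lacked CD45, Ter119, Tie2, 6C3 and Thy1. SSCs, the skeletal stem cells at the apex of the lineage, were in addition CD200+ and CD105- (4 arrays), and BCSPs, the bone, cartilage and stroma progenitors downstream, CD105+ (4 arrays). Each of 4 experiments gave 1 array of each population. All mice had a pinned bicortical fracture and were 10 to 12 weeks old. The labels name no engineered allele and no drug, and each experiment gave 10000 sorted cells of each population. The labels give day 7 after injury for the harvest, while the study's methods name a later day. The deposited value is an activity score, which places a probe set within the range that it covers over many public mouse arrays. It runs from about -100 (inactive) to +100 (active), and 0 is the threshold of the probe set. The score is no log value, levels off at both ends and does not rank the amount of mRNA between genes, so differences are given in points. For each gene the probe set of highest mean over the 8 arrays was used, and a gene is called active above 0. In RNA of sorted cells, fewer cells with a transcript and less transcript per cell cannot be told apart.

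Cholesterol is built from acetyl-CoA through mevalonate, isoprenoid units and squalene, which is closed to lanosterol and then trimmed in a series of late steps. Fatty acids are built from the same acetyl-CoA, which is carboxylated and added to a growing chain that desaturases and elongases then modify. Both programmes are driven by the SREBP transcription factors. These are held in the endoplasmic reticulum by Insig proteins when sterols are plentiful and are escorted by Scap to the Golgi, where they are cut free, when sterols fall. In the skeleton, inherited defects of late sterol enzymes disturb cartilage and bone growth, and cholesterol is attached to hedgehog proteins, which guide endochondral bone formation.

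SREBPs bind sterol regulatory elements and act together with NF-Y and Sp1, whose short recognition sequences lie close to the start of many genes of both pathways. The stretches upstream of Hmgcs1, Cyp51, Idi1 and Insig1 are shown because these genes were active on every array and cover the early steps, the late steps and the sterol feedback. They come from RefSeq promoter windows (GRCm38.p6) that reach from 250 bases before to 50 bases after each gene's start. Every stretch is written 5′ to 3′ on the gene's own strand. Capitals mark a sterol regulatory element (TCACNCCAC), an NF-Y box (CCAAT) or an Sp1 box (GGGCGG), read on either strand, so ATTGG and CCGCCC are the same boxes on the other strand. The stretches are chr13:119690101-119690347 (plus strand) for Hmgcs1, chr5:4104707-4104847 (minus strand) for Cyp51, chr13:8885522-8885605 (plus strand) for Idi1 and chr5:28071168-28071306 (plus strand) for Insig1.
Hmgcs1: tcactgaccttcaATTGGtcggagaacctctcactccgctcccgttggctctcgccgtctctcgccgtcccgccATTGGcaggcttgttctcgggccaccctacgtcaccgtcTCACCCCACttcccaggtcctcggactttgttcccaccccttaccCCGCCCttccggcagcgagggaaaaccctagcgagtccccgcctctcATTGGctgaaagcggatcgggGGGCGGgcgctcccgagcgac
Cyp51: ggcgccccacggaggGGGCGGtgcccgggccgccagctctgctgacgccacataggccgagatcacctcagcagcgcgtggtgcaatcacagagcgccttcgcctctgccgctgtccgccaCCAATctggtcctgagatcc
Idi1: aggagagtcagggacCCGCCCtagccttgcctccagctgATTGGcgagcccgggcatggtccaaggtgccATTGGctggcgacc
Insig1: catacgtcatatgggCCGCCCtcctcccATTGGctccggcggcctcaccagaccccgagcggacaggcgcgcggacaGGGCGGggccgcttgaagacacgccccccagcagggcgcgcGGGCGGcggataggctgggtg

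Of the 33 listed genes, 26 had a promoter in the RefSeq table. An NF-Y box lay in the window of 21 of them (80.8%), against 42% of the 14452 genes on the arrays that had a promoter in the table and 41.1% of all 27025 genes in it. An Sp1 box also lay in 21 (80.8%), against 57.3% of the genes on the arrays and 70.1% of those with a mean score above 0. Both boxes were found in 18 genes (69.2%), against 24.2% of the genes on the arrays and 29.1% of those with a mean score above 0. Among the 14 sterol enzymes with a promoter, which include Acat2, 13 held an NF-Y box and 13 an Sp1 box. The sterol regulatory element was found in Hmgcs1 alone (3.85% of 26, against 1.46% of the genes on the arrays), as TCACCCCAC 137 bases before the start and between NF-Y boxes 176 and 45 bases before it. A gene was counted when any of its windows held the letters. These matches describe the sequence, and the absence of the exact letters says nothing of SREBP binding.

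Synthesis genes were active in both populations. Of the 32 genes, 22 (68.8%) scored above 0 on all 8 arrays, where 25% of all genes did. Mvk scored above 0 on none, and the other 9 on 1 to 7 arrays. The median of the gene means was 57.9 points, against -18.4 for all genes, and on single arrays the median of the 32 genes lay between 51.7 and 72.7. By probe set, 41 of 77 (53.2%) were above 0 on all arrays, against 18.8% of 34945 probe sets with a single gene. Only 11 (14.3%) were above 0 on none, against 49.3%. These shares are descriptions with no test. By role, the genes active on every array were 5 of 7 in early sterol synthesis, 6 of 9 in late sterol synthesis, 2 of 5 SREBP regulators, 2 of 3 in fatty acid synthesis, all 4 desaturases, 2 of 3 elongases and Stard4.

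**Figure D1:**
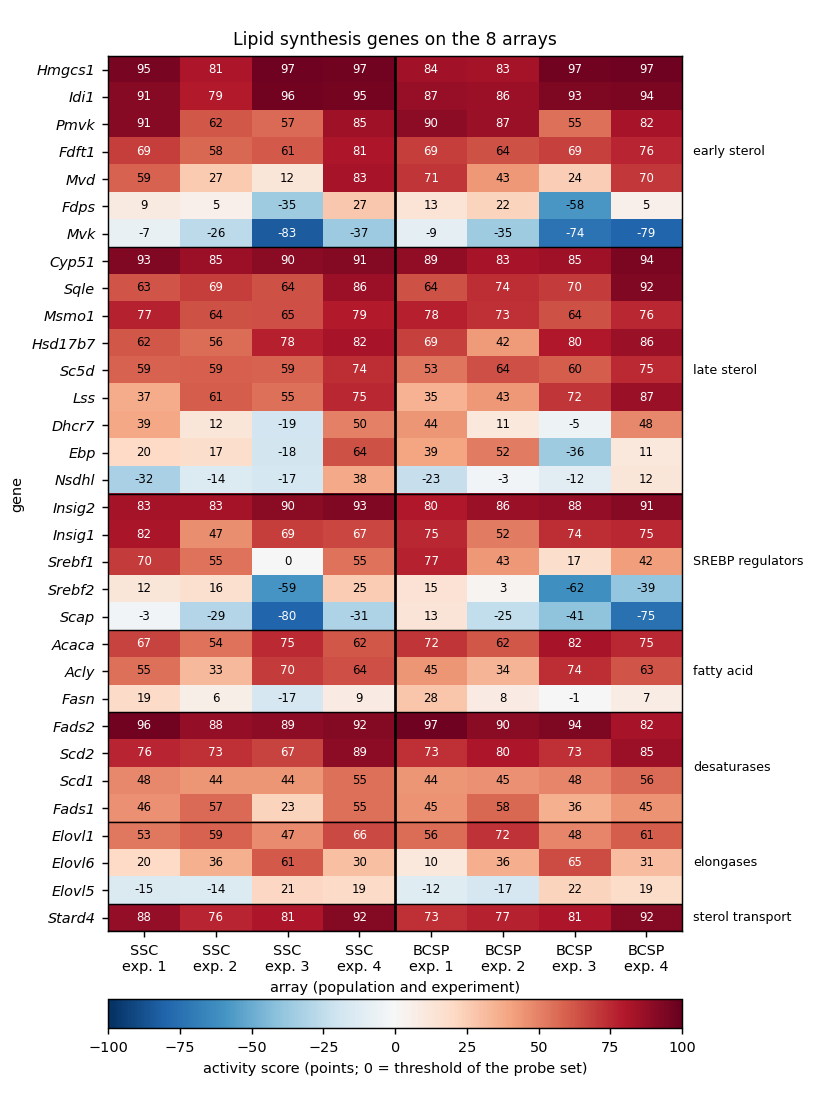
Activity score of the 32 measured genes (rows, grouped by role) on the 4 SSC and 4 BCSP arrays (columns, by experiment), in points from -100 (blue) to +100 (red) with 0 as the threshold of the probe set. Hmgcs1, Idi1, Cyp51, Insig2 and Fads2 are red on every array, Mvk is blue on every array, and Srebf2, Scap, Fdps and Mvk have their lowest value on an array of experiment 3.

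In early sterol synthesis, Hmgcs1 and Idi1 scored close to the upper limit. Hmgcs1, the synthase that makes HMG-CoA, scored 94.7, 81.1, 97.1 and 96.6 on the SSC arrays of experiments 1 to 4, and 83.7, 83.0, 96.8 and 97.3 on the BCSP arrays. Idi1, the isomerase of the isoprenoid units, scored 91.2, 79.4, 96.5 and 95.3 on the SSC arrays and 87.2, 85.5, 93.3 and 93.9 on the BCSP arrays. By the probe sets used, the arrays of experiment 2 were low for both genes and those of experiments 3 and 4 high. The populations overlapped for both genes. Another Hmgcs1 probe set also had its lowest mean in experiment 2, at 58.9. The rest of its probe sets were lowest in experiment 3, at 54.2, 53.35 and -23.3, and highest in experiment 4, at 80.4, 76.3 and 24.5. Mvd, the decarboxylase of the mevalonate steps, scored 58.8, 26.5, 11.8 and 82.7 in SSCs and 71.4, 43.1, 24.5 and 70.5 in BCSPs. Its arrays of experiment 3 were lowest in both populations, and those of experiments 1 and 4 highest. Mvk, the mevalonate kinase, scored -7.45, -25.9, -82.9 and -36.6 in SSCs and -8.77, -35.2, -73.9 and -78.9 in BCSPs, so it was below its threshold throughout and closest to it in experiment 1.

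Among the remaining early enzymes, Pmvk, the phosphomevalonate kinase, scored 73.7 ± 16.6 for SSCs and 78.4 ± 15.7 for BCSPs (SD, n = 4 each). Fdft1, the squalene synthase, scored 67.2 ± 10.5 for SSCs and 69.5 ± 5.29 for BCSPs (SD, n = 4 each). Both were active on all 8 arrays. Fdps, which makes farnesyl diphosphate, lay around its threshold, at 1.43 ± 26.4 for SSCs and -4.34 ± 36.4 for BCSPs (SD, n = 4 each), and was below 0 on the 2 arrays of experiment 3 alone.

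In late sterol synthesis, Cyp51, the lanosterol demethylase, had the highest scores. It gave 92.6, 85.5, 90.5 and 91.5 on the SSC arrays and 88.7, 82.6, 85.1 and 94.1 on the BCSP arrays, with the lowest value of each population in experiment 2. Sqle, the squalene epoxidase at the entry to this branch, scored 63.1, 69.1, 63.5 and 85.7 in SSCs and 64.0, 74.1, 69.6 and 92.4 in BCSPs. Experiment 4 was highest for Sqle in both populations. Hsd17b7, a sterol ketoreductase, scored 62.0, 55.8, 78.1 and 82.2 in SSCs and 68.7, 42.5, 80.2 and 86.2 in BCSPs, with experiment 2 lowest and experiment 4 highest in both.

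Msmo1, the methylsterol oxidase, scored 71.2 ± 8.02 for SSCs and 72.6 ± 6.17 for BCSPs (SD, n = 4 each). Sc5d, a sterol desaturase, scored 63.0 ± 7.44 for SSCs and 63.2 ± 9.08 for BCSPs (SD, n = 4 each), and Lss, the lanosterol synthase, 57.0 ± 15.8 and 59.0 ± 24.3 (SD, n = 4 each). These 3 enzymes were also active on every array. The other late enzymes crossed their thresholds between arrays. Dhcr7, the reductase of the last step, scored 20.5 ± 30.8 for SSCs and 24.5 ± 25.6 for BCSPs (SD, n = 4 each) and was below 0 on the arrays of experiment 3 alone, as was Ebp, a sterol isomerase, at 20.7 ± 33.4 and 16.5 ± 38.7 (SD, n = 4 each). Nsdhl, a sterol dehydrogenase, scored -6.35 ± 30.4 for SSCs and -6.36 ± 14.8 for BCSPs (SD, n = 4 each) and was above 0 on the arrays of experiment 4 alone. Stard4, which carries sterols between membranes, scored 88.3, 76.5, 81.1 and 91.6 on the SSC arrays and 73.2, 76.8, 81.1 and 92.0 on the BCSP arrays, highest in experiment 4 in both populations.

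Among the SREBP regulators, both Insig genes were active on every array and Scap and Srebf2 were not. Insig1, itself a target of SREBPs, scored 81.6, 46.8, 69.1 and 66.5 in SSCs and 75.5, 51.9, 73.5 and 75.2 in BCSPs, with experiment 2 lowest in both. Insig2 scored 83.1, 83.1, 90.2 and 92.9 in SSCs and 80.0, 86.4, 87.8 and 91.3 in BCSPs, highest in experiment 4 in both. Srebf1, which encodes the SREBP most tied to fatty acid synthesis, scored 70.3, 54.6, 0 and 54.6 in SSCs and 76.7, 43.2, 17.2 and 42.1 in BCSPs. It was highest in experiment 1 and lowest in experiment 3 in both populations. Srebf2, which encodes the SREBP most tied to cholesterol synthesis, scored 12.0, 15.7, -59.2 and 25.3 in SSCs and 14.6, 2.78, -61.5 and -39.0 in BCSPs, and its arrays of experiment 4 lay on opposite sides of the threshold. Scap scored -2.57, -29.2, -79.6 and -31.0 in SSCs and 13.3, -24.96, -40.5 and -74.6 in BCSPs, above 0 on a single array. Below 0 a score is low for that probe set, which is not proof that the mRNA is absent.

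In fatty acid synthesis, Acaca and Acly were active on all 8 arrays and Fasn lay near its threshold. Acaca, the carboxylase of the committed step, scored 67.2, 54.0, 74.7 and 62.4 in SSCs and 71.5, 62.3, 82.1 and 75.4 in BCSPs, lower in SSCs than in BCSPs of the same experiment each time. Acly, which supplies cytosolic acetyl-CoA, scored 55.1, 32.8, 69.9 and 64.1 in SSCs and 44.5, 33.9, 74.0 and 62.7 in BCSPs, lowest in experiment 2 and highest in experiment 3 in both. Fasn, the fatty acid synthase, scored 18.8, 5.75, -16.5 and 8.58 in SSCs and 27.9, 8.42, -0.650 and 7.19 in BCSPs, below 0 on both arrays of experiment 3.

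The desaturases were active throughout. Fads2, the first desaturase of polyunsaturated fatty acids, scored 96.2, 88.1, 89.5 and 92.0 in SSCs and 97.3, 90.5, 93.7 and 82.2 in BCSPs. Scd2, a stearoyl-CoA desaturase, scored 75.9, 73.1, 67.3 and 89.2 in SSCs and 73.1, 80.5, 73.2 and 85.5 in BCSPs, highest in experiment 4. Scd1, its paralogue, scored 47.8, 44.0, 44.1 and 55.1 in SSCs and 44.4, 45.4, 48.5 and 56.5 in BCSPs, also highest in experiment 4. Fads1 scored 45.0 ± 15.7 for SSCs and 45.8 ± 8.97 for BCSPs (SD, n = 4 each). Of the elongases, Elovl1 scored 56.3 ± 8.13 for SSCs and 59.2 ± 10.0 for BCSPs (SD, n = 4 each), and Elovl6, which extends palmitate, 36.8 ± 17.7 and 35.7 ± 22.7 (SD, n = 4 each). Elovl5, an elongase of polyunsaturated chains, lay around its threshold at 2.79 ± 19.6 for SSCs and 2.96 ± 20.2 for BCSPs (SD, n = 4 each), below 0 on the arrays of experiments 1 and 2 and above 0 on those of experiments 3 and 4.

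Probe sets of the same gene did not always give the same picture. Among genes with several probe sets, every probe set was above 0 on all 8 arrays for Cyp51, Idi1, Insig2, Msmo1, Scd1 and Stard4. For Acaca, Acly, Elovl6, Sc5d and Scd2, the probe set used was above 0 on all arrays while another was above 0 on none. The gap was widest for Acaca, whose probe sets had means of 68.7 and -71.6. Scd2 gave 77.2 by the probe set used and -29.7 and -37.7 by the others. Of 5 Hmgcs1 probe sets, 4 were active on every array, with means from 60.5 to 91.3, and the other lay at -0.576. Both probe sets of Mvk, Srebf2 and Scap had means below 0. With every probe set of a gene required to be above 0 on all arrays, 9 of 32 genes (28.1%) were called active. With all probe sets of a gene averaged, 15 (46.9%) were. The shares of all genes under these rules were not computed, so these counts cannot be set against the share of all genes given above.

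**Figure D2:**
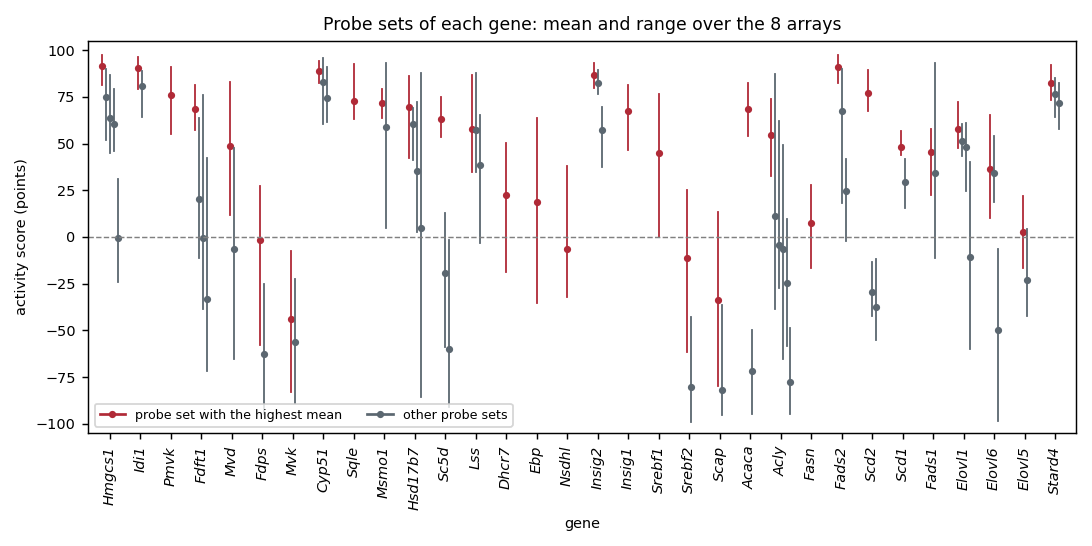
Mean (point) and range over the 8 arrays (line) of the activity score, in points, for every probe set of the 32 genes; red marks the probe set with the highest mean, grey the others, and the dashed line the threshold of 0. The probe sets of Cyp51, Idi1, Insig2 and Stard4 lie above 0 throughout, while those of Acaca, Acly, Sc5d and Scd2 spread to both sides.

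The scores were set beside cell type markers. Adipocytes make fatty acids in large amounts, and their 5 measured markers, Adipoq and Pparg among them, were below 0 on every array, with array medians from -88.1 to -46.2. Hepatocyte markers (4 measured, array medians -73.1 to -41.1) and macrophage markers (5 measured, array medians -71.8 to -51.7) were also below 0 on every array, as were 4 endothelial markers. Of 3 erythroid markers, Alas2 and Slc4a1 were below 0 on every array. The hemoglobin gene Hba-a1 scored above 0 on 5 arrays, with 90.5 for SSCs of experiment 1, and 59.4 for SSCs and 52.0 for BCSPs of experiment 4. Of 4 muscle markers, Myh4, Acta1 and Ckm were below 0 on every array. Mb, the myoglobin gene, was above 0 on both arrays of experiment 1 alone, at 15.7 and 77.6. Fabp4, which adipocytes also use, was above 0 on all 8 arrays, from 8.28 to 30.8 points. The part of such cells in the scores of the synthesis genes was not tested. All 5 cartilage markers and all 3 measured osteoblast lineage markers were active on all 8 arrays, with list medians of 97.8 and 88.4 points. Of the sort markers, Itgav (CD51) and Cd200 were active on every array, whereas Eng (CD105), by which the populations were parted, ran from -64.4 to -29.4 on the SSC arrays and from -1.02 to 50.1 on the BCSP arrays, with no overlap. Between 27 and 30 of the 32 genes per array exceeded the 95th percentile of 38 probe sets of genes from unrelated tissues, against 40.4% to 53.3% of all genes.

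No gene of the pathway was distinguishable between SSCs and BCSPs. At an adjusted p under 0.05, limma called 0 of the 32 genes and 0 of 18193 genes (0%). At an unadjusted p under 0.05 there were 0 of the 32 genes, against 465 of all genes (2.56%), and the methods' t-test gave 0 of the 32 and 440 of all genes. The scores of the 2 populations overlapped for all 32 genes, and they were separate for 1.34% of all genes. Of the 32 genes, 15 had the higher mean in SSCs and 17 in BCSPs, and the median difference (SSC minus BCSP) was -0.178 points, against -0.998 over all genes. The p-values measure the spread between these arrays. The intervals given below come from the fit without a block, so spread between experiments widens them. With the experiment as a block, which pairs the arrays, the standard error was smaller for all 32 genes. It fell from 7.22 to 2.14 points for Sqle and from 5.83 to 2.56 for Acaca. The number of arrays also limits the precision, and a missing call is no evidence that both populations are the same.

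The smallest p-values toward SSCs were those of Cyp51, Srebf2 and Stard4. Cyp51 differed by 2.37 points (SSC minus BCSP, 95% confidence interval -4.19 to 8.93, limma adjusted p = 1) and was higher in SSCs in 3 of 4 experiments. Leaving out a single array moved it from 0.685 points (BCSP array of experiment 2) to 4.54 points (BCSP array of experiment 4). Stard4 differed by 3.60 points (-7.28 to 14.5, limma adjusted p = 1), but by -1.45 points with the mean of its probe sets, and by 1.10 to 7.33 points with a single array left out (lowest without the BCSP array of experiment 1, highest without that of experiment 4). The interval of Srebf2 was wide, with a difference of 19.2 points (-34.4 to 72.8, limma adjusted p = 1). Within experiments 1 to 4 the Srebf2 difference was -2.64, 12.9, 2.32 and 64.3 points, so most of it came from experiment 4. The 19.2 points became 5.65 when experiment 3 lost its BCSP array and 38.4 when it lost its SSC array. Both Srebf2 scores of experiment 3 were low, at -59.2 for SSCs and -61.5 for BCSPs, so losing either alone unbalances the means.

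Toward BCSPs, the smallest p-values were those of Acaca, Sqle and Fasn. Acaca differed by -8.27 points (SSC minus BCSP, 95% confidence interval -21.5 to 4.96, limma adjusted p = 1) and Sqle by -4.69 points (-21.1 to 11.7, limma adjusted p = 1). Both were lower in SSCs in 4 of 4 experiments. In a limma fit with experiment as a block, Acaca had an unadjusted p of 0.0196, the only one of the 32 genes under 0.05 where 5.22% of all genes were, and it did not pass adjustment. With the mean of its probe sets Acaca differed by -3.23 points, and its other probe set, below 0 on every array, averaged -70.7 in SSCs and -72.5 in BCSPs. Without the SSC array of experiment 2 or the BCSP array of experiment 3 the difference was -4.73 and -5.17 points. Fasn differed by -6.56 points (-35.3 to 22.2, limma adjusted p = 1). The sign turned without the BCSP array of experiment 4 for Sqle (1.11 points) and without the SSC array of experiment 3 for Fasn (0.337 points).

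**Figure D3:**
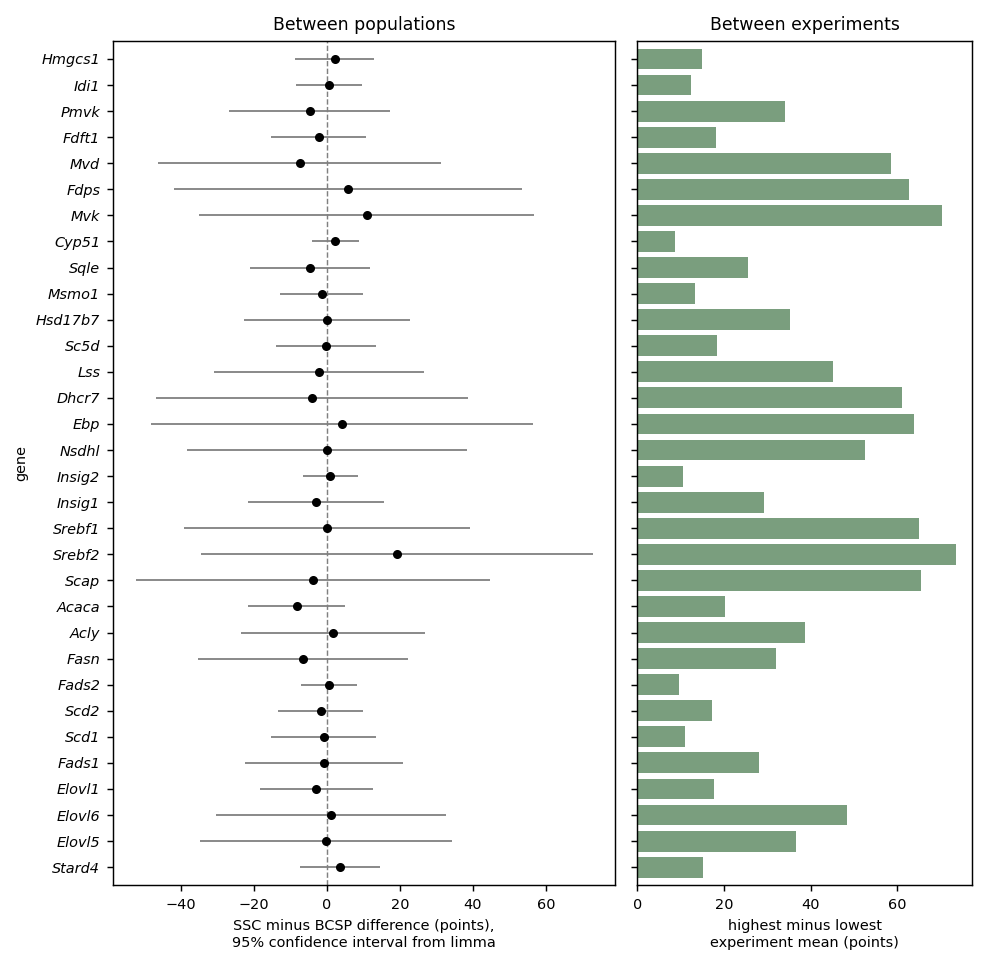
Left, SSC minus BCSP difference in activity score (points) for each of the 32 genes, with the 95% confidence interval from limma; right, highest minus lowest mean of the 4 experiments (points, mean of the SSC and BCSP array). Every interval on the left, from the fit without a block, includes 0. The bars on the right reach 73.6 points for Srebf2 and 8.78 points for Cyp51.

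Scores varied more between experiments than between populations. For all 32 genes the range of the 4 experiment means exceeded the difference between populations, as it did for 17274 of 18193 genes. A range over 4 means tends to exceed a difference between 2 means of more arrays. The median range was 30.6 points for the 32 genes and 32.1 for all genes, and the median size of the population difference was 2.20 and 6.66 points. Among genes with a mean score above 0, the median range was 31.1 points and the median size of the population difference 4.65 points. A moderated F test across experiments called 250 genes at an adjusted p under 0.05 (1.37%), and 0 of the 32 genes were among them. Sqle came closest (limma, adjusted p = 0.0524, range of experiment means 25.5 points). At an unadjusted p under 0.05 there were 23 of the 32 genes (71.9%), against 26.7% of all genes and 42.4% of the 7197 genes with a mean score above 0. By role, these were 14 of 16 sterol enzymes, 4 of 5 SREBP regulators and 5 of 10 fatty acid enzymes.

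The 4 genes with the smallest p between experiments were Sqle, Mvd, Acly and Hsd17b7. Sqle had means of 63.5, 71.6, 66.6 and 89.0 in experiments 1 to 4 (limma F test, unadjusted p = 0.00085). Mvd had 65.1, 34.8, 18.1 and 76.6 (limma F test, unadjusted p = 0.00259, adjusted p = 0.0690). These 2 sterol enzymes were highest in the same experiment. Acly had 49.8, 33.4, 72.0 and 63.4 (limma F test, unadjusted p = 0.00318, adjusted p = 0.0721), and Hsd17b7 had 65.3, 49.1, 79.2 and 84.2 (limma F test, unadjusted p = 0.00353, adjusted p = 0.0737). Both were lowest in experiment 2 by the probe sets used. The other probe sets of Hsd17b7 were lowest in experiment 1, and those of Acly in experiments 1, 2 or 3. The other probe set of Mvd was highest in experiment 4 too.

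Experiment 4 was the highest of the 4 for 16 of the 32 genes (50%), against 21.5% of all genes and 22.4% of genes with a mean score above 0. Among sterol enzymes it was the highest for 12 of 16 (75.0%), among them Sqle, Lss, Cyp51, Sc5d and Dhcr7. The count includes Hmgcs1, at 96.955 against 96.95 in experiment 3. It also includes Ebp, whose BCSP array scored 10.7 in experiment 4 and 51.6 in experiment 2. The other probe sets of Lss and Cyp51 were highest in experiment 4 too, and those of Sc5d in experiments 3 and 2. Experiment 3 was the lowest for 14 of 32 (43.8%), against 39.9% of all genes, and for 7 of 16 sterol enzymes. Experiment 2 was the lowest for 11 of 32 (34.4%), against 18% of all genes, and for 5 of 16 sterol enzymes. In both populations alike, 20 of the 32 genes (62.5%) and 12 of 16 sterol enzymes scored higher in experiment 4 than in experiment 2. The share was 29.6% of all genes and 35.5% of genes with a mean score above 0. Contrasts between single experiments were not planned and overlap with the ranks above, so they are no separate evidence. The median of experiment 4 minus experiment 2 was 10.7 points over the 32 genes and 13.8 over the sterol enzymes, and 0.03 over all genes. The median of experiment 3 minus experiment 4 was -14.3 points over the 32 genes, -19.0 over the sterol enzymes and -3.94 over all genes. By the probe sets used, the SREBP regulators did not share that order. Experiment 1 was the highest for 4 of the 5 (Srebf1, Srebf2, Insig1 and Scap), as it was for 36.8% of all genes. Insig2 had its highest mean, 92.1, in experiment 4. The other probe sets of Srebf2 and Scap, below 0 on every array, were also highest in experiment 4, at -67.2 and -55.6. By the probe sets used, fatty acid enzymes were divided, with experiment 4 highest for Scd1 and Scd2 and experiment 3 for Acaca, Acly, Elovl5 and Elovl6. Other probe sets of Acly, Elovl5, Elovl6 and Scd2 did not all keep this split. Those of Acly were highest in experiment 4 or 2, and the other of Elovl5 in experiment 4. These orders are descriptions with no test.

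**Figure D4:**
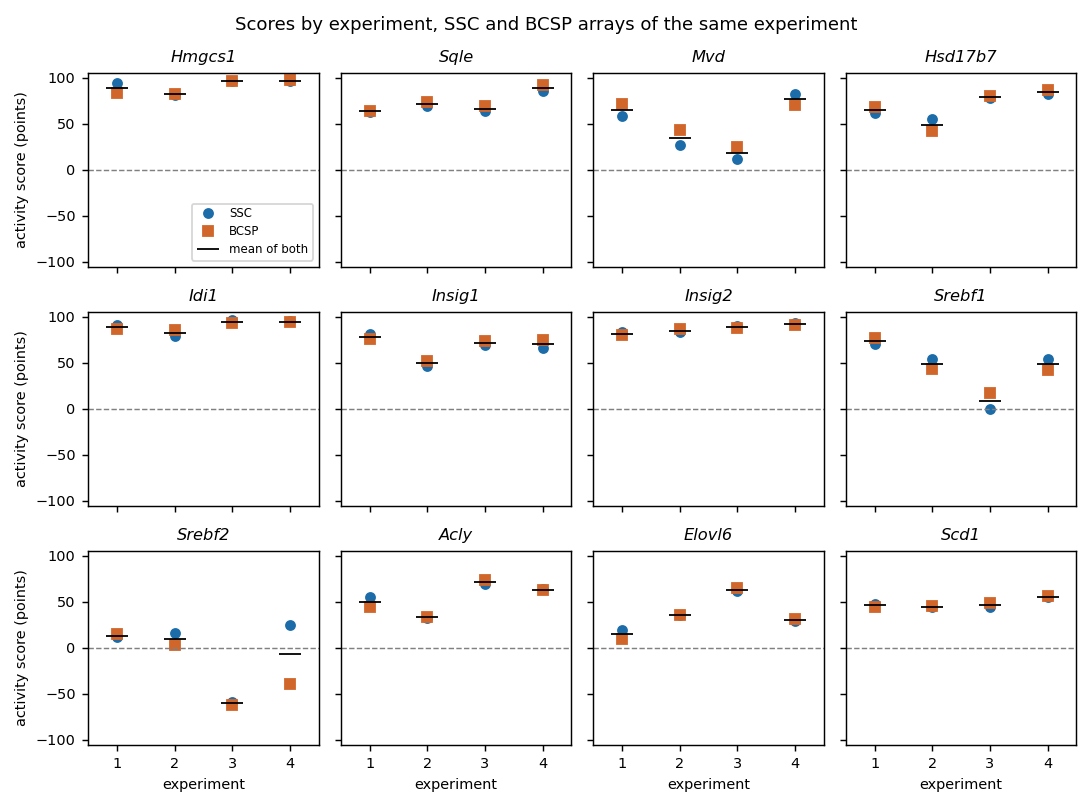
Activity score (points) of 12 genes by experiment, with the SSC array as a circle, the BCSP array as a square, the mean of both as a line and the threshold of 0 dashed. The SSC and BCSP arrays of an experiment lie close together for most genes, Sqle and Hsd17b7 are highest in experiment 4, Insig1 and Acly lowest in experiment 2, Srebf1 and Srebf2 lowest in experiment 3, and the arrays of experiment 4 part for Srebf2 at 25.3 and -39.0.

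The labels number the experiments but do not say how many mice gave each array or whether mice were pooled. The study's figure legend gives 4 different mice for both populations but does not match them to experiments. Animals and processing therefore cannot be told apart. Technical values also moved with the experiments. The 3' score of actin exceeded its 5' score by 59.6 and 64.9 points in experiment 3 and by 23.1 to 44.2 points in the others, and for Gapdh the excess on the SSC and BCSP arrays was 21.3 and 21.6 points in experiment 1, 25.9 and 44.2 in experiment 2, 54.7 and 49.1 in experiment 3, and 53.9 and 71.9 in experiment 4. The median of 9 hybridization controls was 62.5 and 70.9 in experiment 1, 32.4 and 41.8 in experiment 3, and -24.2 to 3.77 in the others. The part of these in the scores of the synthesis genes was not tested. An alternative added after seeing the data left out both arrays of experiment 3. In it, 15 of the 32 genes had an unadjusted p under 0.05 between experiments (14.5% of all genes), and 0 passed adjustment. On all remaining arrays 27 of 32 were active, and the share of all genes was not computed.

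Other genes around these pathways were read out from lists by known function. Of 81 listed genes 70 were measured, and 20 of them (28.6%) were active on all 8 arrays, against 25% of all genes. Between populations limma called 0 (0% of all genes). At an unadjusted p under 0.05 there were also 0 of the 70, against 2.56% of all genes. The methods' t-test gave 1, against 440 of all 18193 genes. The fit with the experiment as a block gave 2, against 5.22% of all genes. The latter were Lrp8 (limma, unadjusted p = 0.0150, lower in SSCs in 4 of 4 experiments) and Vldlr (limma, unadjusted p = 0.0244, higher in 4 of 4), and neither passed adjustment. Of the genes for SREBP processing and sterol sensing, 3 of 10 were active on all arrays. Mbtps2, the protease that releases SREBPs within the membrane, scored 89.2 ± 6.13 for SSCs and 88.0 ± 8.44 for BCSPs (SD, n = 4 each). Mylip, a ligase that degrades lipoprotein receptors, scored 76.1 ± 9.27 for SSCs and 78.2 ± 7.47 for BCSPs (SD, n = 4 each), and Rnf139 was the other active gene. Thrsp, a lipogenic gene, had the smallest p of this list and was below 0 on every array.

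Of the genes for sterol uptake, transport, esterification and efflux, 6 of 11 were active on all arrays. They were the lipoprotein receptor genes Vldlr, Lrp8 and Scarb1, and Npc1, Osbp and Gramd1a, which move sterol between organelles. Lrp8 had the smallest p of all lists between populations, at 84.2 ± 8.16 for SSCs and 91.8 ± 3.51 for BCSPs (SD, n = 4 each) (limma, unadjusted p = 0.0897). Vldlr scored 90.5 ± 5.12 for SSCs and 86.5 ± 5.38 for BCSPs (SD, n = 4 each). Of 6 measured genes of other sterol and isoprenoid synthesis, Lbr alone was active on all arrays, at 5.07 ± 4.14 for SSCs and 11.3 ± 8.05 for BCSPs (SD, n = 4 each). Between experiments, 21 of the 70 genes (30.0%) had an unadjusted p under 0.05, against 26.7% of all genes. Acsl3, which activates long-chain fatty acids, was the only one called after adjustment (limma F test, adjusted p = 0.0414), at 52.7 ± 22.9 for SSCs and 58.3 ± 26.2 for BCSPs (SD, n = 4 each). That call was lost without any single array.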

How the data were processed

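SSCs and BCSPs were sorted from mouse fracture callus into Trizol. Before hybridization to Affymetrix arrays the authors amplified the RNA repeatedly, and they used Gene Expression Commons for normalization. For 45101 probe sets the file holds a deposited activity score (-100.03 to 100), with a StepMiner threshold per probe set. Repeated amplification favours the 3' end, so probe sets far from it can read low, and the score cannot exceed its limits. The method that combined single probes was not given in the sources used here.

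Of the probe sets that were not among 64 controls, the platform annotation gave 34945 a single symbol, 932 several and 9160 none. For each of 18193 genes the probe set of highest mean was used. The population fit ran on all 8 arrays with no block (R 4.3.3, limma 3.58.1, eBayes with a variance trend), and experiments were compared by a moderated F test in a fit with population and experiment, both with Benjamini-Hochberg adjustment over all genes at 0.05. The fits were tested on simulated scores.

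By the labels, every experiment holds 1 array of each population. The BCSP array of experiment 2 is titled as number 3 and described as number 2, and was taken as replicate 2. Deviations from the group means of arrays of the same experiment correlated at 0.399, 0.177, 0.572 and 0.183, so the experiments were taken to pair the arrays, and the block was run as an alternative. Array medians lay between -34.2 and -24.8, and 29.0% to 31.0% of probe sets were above 0. Other alternatives were the methods' t-test, array weights, quantile normalization, centring, filters on the mean score, other probe set rules, other thresholds for active genes, and leaving out each array.

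The genes and lists were chosen with earlier results of these data known. Values on every array were given for the 3 genes with the smallest p in each direction between populations, the 4 with the smallest p between experiments, the 3 highest and 3 lowest means, the SREBP regulators and the best known enzymes (Fasn, Scd1, Scd2, Hmgcs1 and Sqle). From other lists the genes with the smallest p were named, and genes named there as active were chosen after their values were seen. Listed genes that lacked an own probe set have no score here.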

Additional observations from a re-analysis of the deposited data

Results flagged for a closer look

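In 4 of 64 groups of 4 arrays (32 genes in 2 populations), a single array stood apart from the other 3 by a gap past Dixon's 95% critical value. Chance gives about 1 in 20 such groups. Hmgcs1 scored 81.1 on the SSC array of experiment 2, where the other SSC arrays lay between 94.7 and 97.1. Insig1 scored 51.9 on the BCSP array of experiment 2, below the 73.5 to 75.5 of the others. Sc5d scored 74.2 on the SSC array of experiment 4, above the 59.0 to 59.5 of the others, and Srebf2 scored -59.2 on the SSC array of experiment 3, where the others lay between 12.0 and 25.3. For Hmgcs1 and Insig1 the array of the other population in experiment 2 was the lowest too, at 83.0 and 46.8. For Sc5d the BCSP array of experiment 4 was the highest of its population, at 74.9, and for Srebf2 the BCSP array of experiment 3 was the lowest, at -61.5.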

How the results depend on the processing

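Between populations, no setting gave a call among all genes, the 32 synthesis genes or the other pathway genes. With the experiment as a block, which pairs the arrays, the count was 0 as well, and it changed no call. At an unadjusted p under 0.05 the block gave 949 genes, against 465 without it. The difference changed sign for Stard4 with the mean of probe sets (-1.45 points), for Sqle without the BCSP array of experiment 4 (1.11 points) and for Fasn without the SSC array of experiment 3 (0.337 points). With single arrays left out, it ran from -9.80 to 1.11 points for Sqle and from -11.4 to 0.337 points for Fasn. Within experiments 1 to 4 the Sqle difference was -0.96, -4.99, -6.06 and -6.74 points, and Fasn was lower in SSCs in experiments 1 to 3 alone. Leaving out a single array leaves its experiment with 1 population, so the compared means then rest on unequal sets of experiments. The cause of the sign changes was not tested.

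Between experiments, the count of called genes, 250, depended on the setting. It was 597 with quantile normalization, 422 with centring on array medians, 435 and 1052 with genes kept above a mean of -50 and of 0, 131 with the mean of probe sets, 448 with every probe set, 986 without the population term, 0 without the variance trend, 0 with both arrays of experiment 3 left out and 0 to 6 with any single array left out. Of the 32 genes, 1 was called with quantile normalization, 1 above a mean of -50, 4 above a mean of 0, 1 with the mean of probe sets and 7 without the population term, against 0. Of the other pathway genes, 2 were called above a mean of -50, 3 above a mean of 0 and 2 without the population term, and 0 with the mean of probe sets, without the variance trend, without experiment 3 or with any single array left out, against 1. The count of the 32 genes at an unadjusted p under 0.05, 23, was 15 without the variance trend, 15 without experiment 3 and 12 to 22 with any single array left out, lowest when experiment 3 lost its SSC array (12) or its BCSP array (14). Fewer arrays also leave less to estimate the spread.

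The count active on all arrays, 22, was 9 with every probe set of a gene required above 0, and 15 to 27 otherwise. The share of all genes was not computed for these alternatives. A gene's mean score moved by more than the spread between replicates for 27 of 32 genes with centring and 13 with the mean of probe sets. Leaving an experiment with 1 array assumes that it varies like the others.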

Other observations

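The supply of fatty acid building blocks, the making of triglycerides and the burning of fatty acids were read from 3 further lists, given as values with no explanation. Of 17 measured genes of fatty acid supply, activation and elongation partners, 6 scored above 0 throughout and 6 never did. Hacd1, a dehydratase of chain elongation, scored 96.5 ± 0.751 for SSCs and 96.05 ± 1.25 for BCSPs (SD, n = 4 each), and Me1, the malic enzyme that supplies NADPH, 80.1 ± 2.97 and 76.8 ± 3.42 (SD, n = 4 each). In this list, Elovl7 had the smallest p between populations, with scores that were all negative.

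Of 10 genes of triglyceride and phospholipid synthesis, 1 was active on all 8 arrays, Lpcat1, which remodels phospholipids, at 31.5 ± 5.23 for SSCs and 30.8 ± 14.8 for BCSPs (SD, n = 4 each), and 5 were active on none. Of 16 genes of fatty acid uptake and oxidation, 3 scored above 0 throughout and 9 never did. The former were Fabp5 and Fabp4, which bind fatty acids in the cytosol, and Hadhb of mitochondrial oxidation. Fabp5 scored 64.6 ± 1.21 for SSCs and 70.1 ± 3.63 for BCSPs (SD, n = 4 each) without passing limma (adjusted p = 1). The median of the gene means was -16.4 points for the triglyceride list and -20.8 for the uptake and oxidation list, against 57.9 for the 32 synthesis genes and -18.4 for all genes.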
